A study of Mus musculus with 78 samples.

Results

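The corticotropin-releasing hormone system was followed through 6 genes: Crh, Ucn and Ucn3, which encode ligands, Crhbp, which encodes a secreted binding protein, and Crhr1 and Crhr2, which encode the receptors. Every probe annotated to one of these genes was taken, which gave 9 probes of the 46643 on the array and 6 of the 19406 genes that the annotation named. Crhr1 was represented by 3 probes, Crhr2 by 2 and each of the other genes by 1.

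Intensities came from whole-genome bead arrays of brain tissue cut out by laser microdissection from male mice of 3 breeding lines derived from the CD1 strain. HAB mice were bred for strong anxiety-related behaviour, LAB mice for weak anxiety-related behaviour, and NAB mice for an intermediate level. All animals came from generation 25 and were 10 weeks of age, and no transgene or drug treatment is described for them. They were not untested animals. The study describes selection by behaviour on the elevated plus-maze and a tail-suspension test, with killing 3 days after the latter. For the microdissected mice it refers to the same procedure. The 5 regions were the cingulate cortex (Cg), the central amygdala (CeA), the hypothalamic paraventricular nucleus (PVN), the basolateral amygdala (BLA) and the dentate gyrus (DG). Of 78 arrays, 75 had values, and the other 3 were DG arrays. Counted as HAB, NAB and LAB, there were 5, 6 and 6 arrays in Cg, 6, 6 and 5 in CeA, 6, 5 and 5 in PVN, 5, 6 and 5 in BLA, and 3, 3 and 3 in DG. The arrays carried the numbers of 21 mice (6 HAB, 7 NAB and 8 LAB), which is more than the study's methods describe, so that a mouse giving several regions rests on the labels alone. Each line is 1 breeding population, so that selection for behaviour and any other inherited difference between lines cannot be told apart. Samples of a region were hybridised in 1 batch, so that region and batch cannot be told apart either.

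Corticotropin-releasing hormone is a neuropeptide that PVN neurons release into the pituitary portal blood, where it drives the secretion of corticotropin and so of adrenal glucocorticoids. It also acts as a transmitter in the amygdala, the bed nucleus of the stria terminalis and the cortex. The hormone binds its receptor type 1 with high affinity, and urocortin binds both receptor types. Urocortin 3 is selective for receptor type 2. Both receptors couple mainly to the stimulatory G protein and cyclic AMP. The binding protein takes up the hormone and urocortin outside the cell and limits how much of them reaches a receptor.

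A probe was taken as above background on an array when its normalised intensity exceeded the 95th percentile of 1305 probes for odorant and pheromone receptors on that array, genes that brain tissue largely leaves silent. That level lay between 6.99 and 10.6 over the 75 arrays, and 29.9 to 42.9% of all probes exceeded it. Arrays of 1 group correlated at r = 0.945 to 0.981 over all probes (median 0.966). A probe was tested in a region when it was above background on at least as many arrays as the smallest line of that region had. The dissections were checked with region marker genes. In the joint fit, 3 of 4 PVN marker probes were higher in PVN than in the other 4 regions, as were 5 of 5 CeA probes in CeA, 8 of 8 BLA probes in BLA, 4 of 4 DG probes in DG and 5 of 5 isocortical probes in Cg. The summed isocortical markers had higher means in BLA (803 in HAB, 856 in NAB, 739 in LAB) than in Cg (688, 624, 578). Their sum thus does not set Cg apart from BLA. The PVN transcription factors Otp and Sim1 were at background, and 5 of 6 thalamic probes were higher in PVN as well. In tissue of this kind, fewer cells expressing a gene and less RNA per cell cannot be told apart.

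Most probes of the system were dim on this platform. Of 675 probe-by-array values, 26.5% were above background, and 74 of the 179 that this share stands for belonged to Crhbp. Crhbp was above background on 74 of 75 arrays, Crhr2 probe 1 on 30, Crhr1 probe 2 on 23, Crhr1 probe 1 on 20, Ucn3 on 16 and Crh on 10. Crhr2 probe 2 reached it on 4 arrays, Ucn on 2 and Crhr1 probe 3 on none. As a result 6 probes of 5 genes could be tested in at least 1 region, 4 of them in Cg and 3 in each of the other regions. Intensities of different probes are not compared with each other, because each probe has its own hybridisation efficiency.

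**Figure D1:**
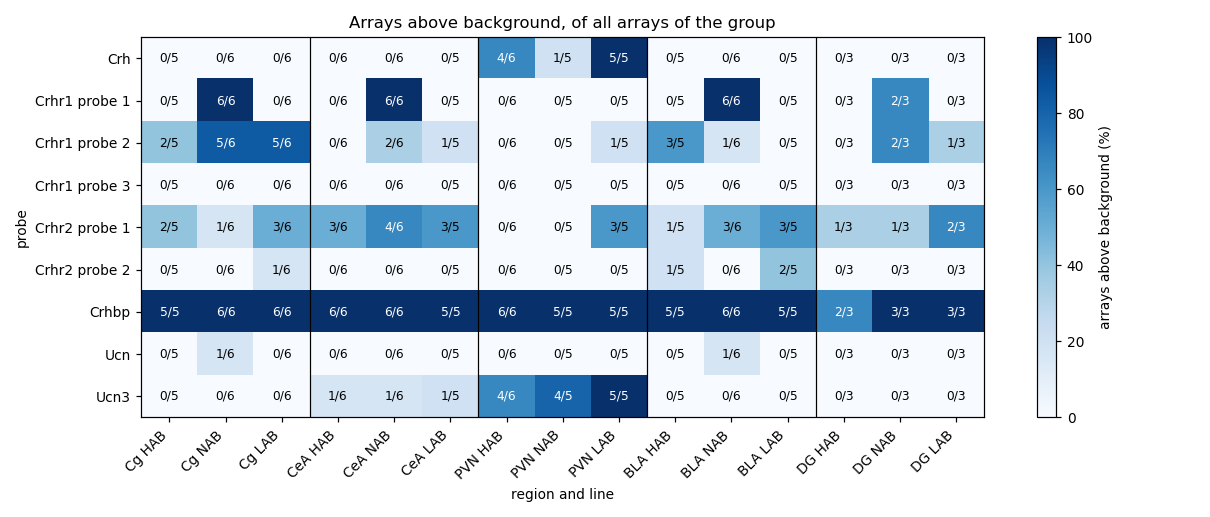
Number of arrays above background, of all arrays of the group, for the 9 probes (rows) in the 15 groups of region and line (columns), with the shade giving the same share in percent. Crhbp is dark in all groups, Crh and Ucn3 are dark mainly in PVN, and Crhr1 probe 1 is dark only in NAB columns (6 of 6 arrays in Cg, CeA and BLA, 2 of 3 in DG and 0 of 5 in PVN).

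Line differences within a region were tested with limma on log2 intensities, with p-values adjusted by the Benjamini-Hochberg method over all probes tested there and a threshold of 0.05. Over the 48 tests of member probes, 7 passed. Between HAB and LAB, 0 of 4 probes passed in Cg (2.47% of all probes), 0 of 3 in CeA (2.22%), 0 of 3 in PVN (2.09%), 1 of 3 in BLA (2.25%) and 0 of 3 in DG (0.761%). Between HAB and NAB, 1 of 4 passed in Cg (2.13% of all probes), 1 of 3 in CeA (2.06%), 0 of 3 in PVN (1.71%), 1 of 3 in BLA (3.05%) and 0 of 3 in DG (0.659%). Between NAB and LAB the counts were 1 of 4 in Cg (2.51% of all probes), 1 of 3 in CeA (2.63%), 0 of 3 in PVN (1.69%), 1 of 3 in BLA (3.39%) and 0 of 3 in DG (0.627%). All 6 passes that involved NAB were of Crhr1 probe 1, and the pass between HAB and LAB was of Crhbp. A probe that was tested only because 1 line is bright on it had to differ between lines. That holds for Crhr1 probe 1, so that its passes do not make the count of members a result of its own.

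Averaged over the 5 regions in a joint fit with the mouse as a random block, 0 of 6 probes differed between HAB and LAB (7.17% of all probes), 1 of 6 between HAB and NAB (6.24%) and 1 of 6 between NAB and LAB (11.9%). The fitted difference between lines depended on the region for 0 of 6 probes with HAB against LAB (0.258% of all probes), for 1 of 6 with HAB against NAB (0.235%) and for 1 of 6 with NAB against LAB (0.331%). The passes in both kinds of test were of Crhr1 probe 1, whose HAB and LAB arrays were all below background. Regions differed much more widely over the whole array. Against the mean of the other 4 regions, 5 of 6 member probes passed in Cg (65.8% of all probes), 1 of 6 in CeA (58.9%), 5 of 6 in PVN (61.7%), 4 of 6 in BLA (56.3%) and 2 of 6 in DG (70.8%). With 6 probes, these shares are too coarse to be set apart from those of all probes. Crh and Ucn3 entered these tests only through PVN and Crhr1 probe 1 only through NAB, so that their passes are no result of their own. Some of them concern regions at background: Crh was above it on 0 of 17 arrays in Cg and 0 of 16 in BLA, and Crhr1 probe 1 on 0 of 16 in PVN.

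**Figure D2:**
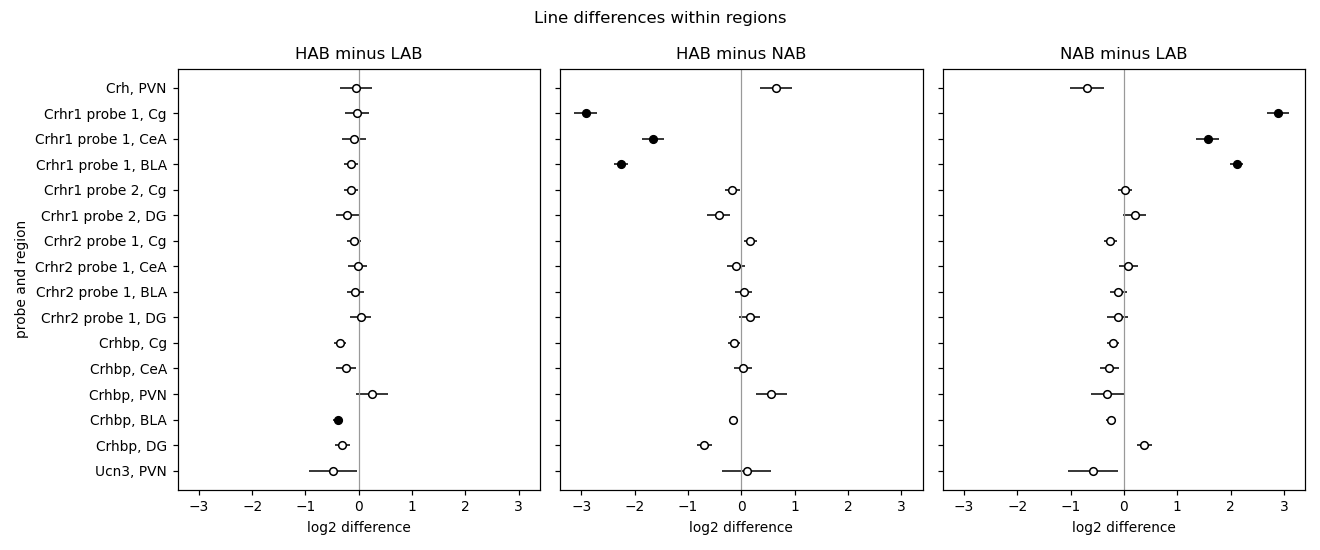
Log2 difference between lines (points) with its standard error (bars) for each of the 16 combinations of probe and region that were tested, for HAB minus LAB, HAB minus NAB and NAB minus LAB. Filled points have an adjusted p under 0.05, and they are Crhr1 probe 1 in Cg, CeA and BLA in both comparisons with NAB (fitted differences from -2.92 to 2.88, against lines at background) and Crhbp in BLA for HAB minus LAB (-0.40).

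Crh, the main hypothalamic releasing hormone for corticotropin, was detected in PVN alone. It was above background on 10 of 16 PVN arrays and on 0 of the 59 arrays of other regions. Its intensity in PVN was 9.47 ± 3.27 (SD, n = 16), with a range from 3.56 to 14.3, against means of 3.76 in CeA, 3.15 in DG, 2.42 in BLA and 2.42 in Cg. These lower means lie below the background level and set no order. In 12 of the 13 mice with both arrays, PVN was higher than CeA. The fitted difference of PVN from the other 4 regions was 1.65 on the log2 scale (limma, adjusted p = 1.28e-18), and because the dim side was at background the fold is only bounded, at least 1.02-fold higher in PVN. Crh entered the tests only through PVN, so that this difference is a description of where the probe could be read. The CeA, where Crh neurons are well known, had 0 of 17 arrays above background on this probe.

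Within PVN, Crh did not separate the lines. The HAB arrays read 9.97, 5.20, 8.36, 11.8, 14.3 and 13.9, the NAB arrays 3.75, 8.64, 3.56, 12.0 and 7.74, and the LAB arrays 12.4, 8.65, 9.14, 11.5 and 10.6. NAB held both of the lowest arrays, but its highest array lay inside the range of the other lines, and all 3 lines overlapped. Means were 10.6 ± 3.47 in HAB (4 of 6 arrays above background), 7.13 ± 3.54 in NAB (1 of 5) and 10.5 ± 1.59 in LAB (5 of 5). HAB minus NAB was 0.65 (SE 0.304, limma, adjusted p = 0.494), NAB minus LAB was -0.70 (SE 0.317, limma, adjusted p = 0.328) and HAB minus LAB was -0.05 (limma, adjusted p = 0.977). Both comparisons with NAB were under 0.05 before adjustment only. The median of all probes in PVN was itself -0.13 for NAB minus LAB.

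Several sums of marker intensities for other cells and neighbouring nuclei also moved with the line in PVN. Between NAB and LAB, the contrast in which Crh had its lower mean, 4 sums did not overlap: thalamus (4 of 4 genes above background) ran from 340.3 to 458 in NAB and from 501 to 622 in LAB, GABA neurons and interneurons from 933 to 1361 and from 1392 to 1981, astrocytes (4 of 4 genes) from 665 to 871 and from 885 to 1013, and microglia (3 of 4 genes) from 54.7 to 100.2 and from 101 to 124. The sums of all other marker lists overlapped in this contrast. In all 4 NAB was the lower line, which was also the direction of the median of all probes (-0.127) and of 188 of the 312 calls there. The thalamus and GABA lists share Calb2. The share of all probes without overlap was not counted. The sum of the arcuate markers Pomc, Kiss1 and Ghrh, the 3 genes of a list of 4 that were on the array, was 32.7 to 53.7 in HAB against 93.4 to 171 in NAB and 82.0 to 115 in LAB. Ghrh was not above background in HAB in PVN but was in NAB and LAB, and HAB also had the lower arcuate sum in CeA, 25.7 to 34.4 against 34.5 to 43.1 in NAB, so that tissue content and a line difference in single marker genes cannot be told apart. The PVN markers themselves overlapped, with 2156 to 3518 in HAB, 2037 to 3809 in NAB and 2663 to 3264 in LAB. The part of these sums in the PVN values of Crh, Ucn3 and Crhbp was not tested.

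Avp was read beside Crh on the same arrays. Its intensity was 982 ± 187 (SD, n = 6) in HAB, 852 ± 298 (n = 5) in NAB and 833 ± 104 (n = 5) in LAB. Avp encodes vasopressin, which is made in the PVN and adds to the effect of Crh on the pituitary.

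Array by array, the relation of Crh with Avp had the highest r of the 5 relations computed among Crh, Ucn3, Avp and Oxt in PVN and did not pass after adjustment. Over the 16 PVN arrays, as deviations from the mean of the line, Crh and Avp had r = 0.75 (permutation within lines, p = 0.0161, adjusted over 5 relations 0.0804) and rho = 0.574 (permutation p = 0.0616, adjusted 0.308), and r was 0.67 without the 2 arrays farthest from the median of Crh. Crh and Oxt, which encodes oxytocin, had r = 0.49 (permutation p = 0.154, adjusted 0.384) and -0.18 without 2 arrays, so that this value rests on those arrays. Crh and Ucn3 had r = 0.26 (permutation p adjusted 0.66). These pairs were chosen after the levels had been seen. Over the 15 group means of log2 intensity, the 3 genes whose pattern was most like that of Crh were Tcf7l2 (Pearson r 0.981), a transcription factor of Wnt signalling that is also on the list of thalamic markers, Tekt2 (0.975), a protein of ciliary microtubules, and Avp (0.972). Those values describe 15 points that share regions and batches, and they rest mainly on the PVN means, since Crh was at background in every other group.

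**Figure D3:**
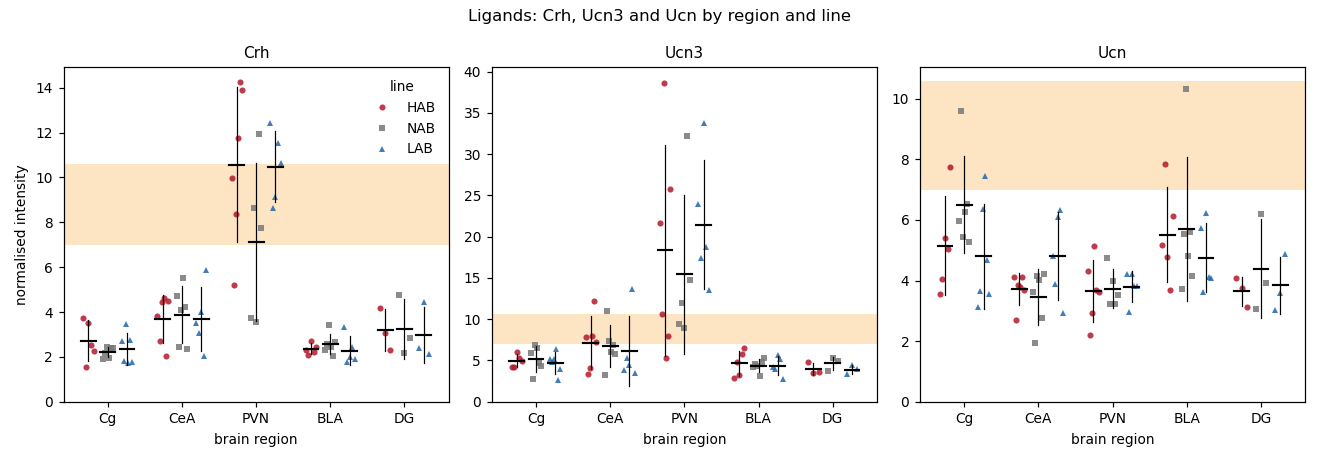
Normalised intensity (linear axis) of Crh, Ucn3 and Ucn by region, with 1 point per array, coloured by line, and the mean with its SD as bars. The shaded band spans the background levels of the arrays (6.99 to 10.6). Crh and Ucn3 rise above the band in PVN, and Ucn stays below or inside it, with its highest arrays at 9.61 and 10.3.

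Ucn3, the ligand selective for receptor type 2, was likewise brightest in PVN. Its PVN intensity was 18.4 ± 10.1 (SD, n = 16; 5.34 to 38.7) and 13 of 16 arrays were above background. In CeA the mean was 6.70 ± 3.15 (n = 17), with 3 arrays above background, 1 of each line, at 12.2, 11.0 and 13.7. No array of Cg, BLA or DG was above background, and PVN was at least 1.83-fold higher than Cg, at least 1.86-fold higher than BLA and at least 1.93-fold higher than DG. The fitted difference of PVN from the other 4 regions was 1.74 on the log2 scale (limma, adjusted p = 5.32e-15), which again describes the region through which the probe entered the tests. The fitted value of Cg against the rest sets readings below background against a mean that includes PVN, so that it describes no level in Cg. Without NAB mouse 4 it no longer passed (limma, adjusted p = 0.0568, against 0.0161 with all mice).

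The lines overlapped for Ucn3 in PVN. The HAB arrays read 21.7, 10.6, 38.7, 5.34, 7.96 and 25.8, the NAB arrays 9.43, 11.9, 8.96, 32.2 and 14.7, and the LAB arrays 23.9, 17.4, 33.8, 18.8 and 13.5. The spread inside HAB covered more than the whole range of LAB, and no comparison of lines passed. HAB minus LAB was -0.48 (limma, adjusted p = 0.903), HAB minus NAB was 0.10 (limma, adjusted p = 0.975) and NAB minus LAB was -0.58 (limma, adjusted p = 0.554). The brightest array, from HAB mouse 9, also had the highest summed choroid plexus markers, 370 against 51.0 to 92.4 on the other PVN arrays, and the highest summed oligodendrocyte markers, 1886 against 477 to 1021. Their part in its Ucn3 value was not tested. The most similar patterns over the 15 group means were those of 1700012B09Rik (Pearson r 0.983), Mfn1 (0.977), a mitochondrial fusion protein, and Dmkn (0.973), a secreted epidermal protein. As Ucn3 was at background in most groups outside PVN, these values rest mainly on the PVN means.

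The region before the Ucn3 start is shown because PVN stood apart from the other regions on its probe. It spans chr13:3945300-3945599 on the minus strand of GRCm38.p6 (RefSeq), from 250 bases before the start site to 50 after it, and holds 44.7% G and C. None of the 6 motifs searched on both strands was found in these letters, so that nothing is in capitals. Those were TGACGTCA (cyclic AMP response element, in 1.88% of 27025 promoters of the same length), its shorter form TGACG (21.0%, which overlaps the full element), TATAAA (14.2%), AGAACA (core of the glucocorticoid response element, 19.0%), CCAAT (37.9%) and GGGCGG (GC box, 35.9%). A promoter was present in the RefSeq table for 5 of the 6 members, all but Crh.
Ucn3 promoter: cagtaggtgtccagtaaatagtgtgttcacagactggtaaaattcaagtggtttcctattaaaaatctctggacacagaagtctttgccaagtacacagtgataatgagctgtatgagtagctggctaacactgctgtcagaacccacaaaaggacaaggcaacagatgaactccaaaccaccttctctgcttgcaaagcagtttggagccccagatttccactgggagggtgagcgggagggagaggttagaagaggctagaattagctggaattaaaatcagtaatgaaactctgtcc

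Ucn, which encodes urocortin and is best known from the Edinger-Westphal nucleus of the midbrain, was close to undetected. Its region means ran from 3.73 to 5.51, and 2 of 75 arrays were above background, both of NAB, at 9.61 in Cg and 10.3 in BLA. It was tested in no region. Its promoter was the only one of the 5 with the full element TGACGTCA, which began 44 bases before the start site.

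Crhbp, the binding protein, was above background on nearly every array, so that its level could be followed through all 5 regions. Intensity was 189 ± 25.7 in BLA (SD, n = 16; 147 to 232), 84.2 ± 13.4 in Cg (n = 17; 64.5 to 108), 45.4 ± 10.3 in CeA (n = 17; 31.0 to 69.8), 29.7 ± 11.5 in PVN (n = 16; 14.6 to 51.5) and 12.5 ± 3.03 in DG (n = 9; 8.92 to 18.2, with 8 of 9 arrays above background). BLA was above Cg in 16 of 16 mice without any overlap of arrays. Cg was above CeA in 13 of 13 mice and PVN above DG in 7 of 7, each with a small overlap of arrays from different mice. CeA and PVN overlapped most, with CeA higher in 10 of 13 mice.

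The fitted differences from the other 4 regions were 2.49 for BLA (limma, adjusted p = 3.71e-34), 1.01 for Cg (3.65e-16), -0.98 for PVN (1.26e-15) and -2.43 for DG (1.63e-29), while CeA was close to the mean of the others at -0.10 (adjusted p = 0.322). The BLA value is a 5.63-fold higher level than the average of the other regions on the log scale. The 3 genes with the most similar pattern over 15 group means were Stac2 (Pearson r 0.988), an adaptor of calcium channels, Ociad2 (0.979) and Atp9a (0.975), a P-type ATPase.

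**Figure D4:**
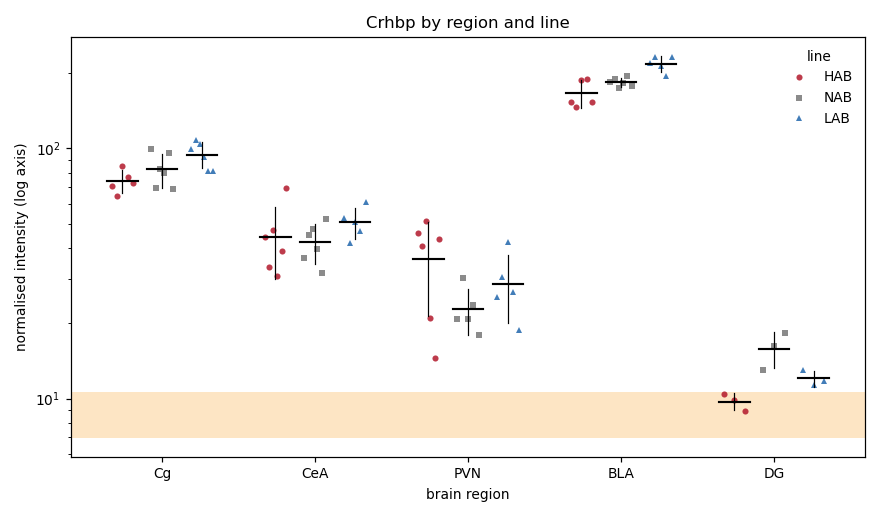
Normalised intensity of Crhbp (log axis) by region, with 1 point per array, coloured by line, and the mean with its SD as bars. The shaded band spans the background levels of the arrays (6.99 to 10.6). BLA arrays lie between 147 and 232 and above all others, and within BLA the 5 HAB arrays lie below the 5 LAB arrays.

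In BLA, Crhbp was lower in HAB than in LAB. The HAB arrays read 154, 147, 188, 190.3 and 153, and the LAB arrays 219, 232, 213, 195 and 232. The highest HAB array lay below the lowest LAB array, though narrowly. NAB lay between them, at 175 to 195 with a mean of 184 ± 7.36 (n = 6), against 166 ± 20.8 (n = 5) in HAB and 218 ± 15.3 (n = 5) in LAB. HAB minus LAB was -0.40 on the log2 scale (SE 0.0897, limma, adjusted p = 0.0200), while HAB minus NAB (-0.15, adjusted p = 0.370) and NAB minus LAB (-0.24, adjusted p = 0.126) did not pass. This call was close to the threshold. It was lost in 6 of the 16 fits that left out 1 array (HAB mice 1, 5 and 17 and LAB mice 3, 6 and 14, with limma adjusted p up to 0.0730), and also without the filter on dim probes (0.156) and in the joint fit of all regions (0.691), with the difference between -0.45 and -0.36 throughout. The summed markers of GABA neurons and interneurons, of which 8 of 9 genes were above background and Vip was not, ran from 1476 to 1829 in HAB, from 1422 to 1754 in NAB and from 1646 to 2053 in LAB. Their part in the difference was not tested. The summed BLA markers overlapped fully, with 850 to 1087 in HAB, 889 to 1079 in NAB and 842 to 1023 in LAB.

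Cg showed the same order of means without passing the test. Crhbp there was 74.1 ± 7.65 in HAB (n = 5), 82.5 ± 12.9 in NAB (n = 6) and 94.5 ± 11.3 in LAB (n = 6), and HAB minus LAB was -0.35 (SE 0.113, limma, adjusted p = 0.185). The HAB arrays ran from 64.5 to 85.2 and the LAB arrays from 81.5 to 108, so that 1 HAB array reached into the LAB range. After quantile normalisation the adjusted p became 0.0329 over all arrays and 0.0311 within the region. These were the only settings that passed among the 8 run beside the main one, over which adjusted p (limma) reached 0.978. Without 1 array it ran from 0.115 to 0.429. Summed GABA neuron markers in Cg ran from 1174 to 1517 in HAB and from 1364 to 1569 in LAB, while the summed isocortical markers were higher in HAB (664 to 717) than in LAB (524 to 639) without overlap. The part of either sum was not tested.

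In the other regions the order of the lines was different and no line comparison passed. CeA means were 44.1 ± 14.0 in HAB, 42.2 ± 7.64 in NAB and 50.7 ± 7.30 in LAB. In PVN HAB had the highest mean, 36.2 ± 14.8, with arrays at 46.1, 40.7, 51.5, 21.1, 14.6 and 43.4, against 22.7 ± 4.74 in NAB and 28.8 ± 8.69 in LAB. HAB was split there, with 4 arrays above all NAB arrays and the other 2 inside or below the NAB range. Those 2 arrays, of mice 11 and 17, also had the lowest summed GABA neuron markers of HAB in PVN, 1247 and 959 against 1764 to 2016 for the other 4. The same arrays were lowest in summed oligodendrocyte markers (510.5 and 578.2 against 800.1 to 1886) and choroid plexus markers (61.2 and 57.1 against 71.6 to 370). Summed PVN and thalamic markers did not set both of them apart. The part of these sums was not tested.

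DG was the only region where NAB had the highest Crhbp. The arrays there read 10.4, 9.87 and 8.92 in HAB, 13.1, 16.3 and 18.2 in NAB and 13.0, 11.3 and 11.8 in LAB. NAB lay above both other lines on all 3 arrays, by a small margin over LAB. With 3 arrays a line, HAB minus NAB was -0.69 (SE 0.146, limma, adjusted p = 0.131), and only with array weights it passed (adjusted p = 0.00654), as did NAB minus LAB (0.0420). Array weights also raised the number of calls over all probes in both of these DG contrasts. Under the other settings adjusted p (limma) reached 0.536 for HAB minus NAB and 0.992 for NAB minus LAB. Without 1 array neither passed (limma, lowest adjusted p 0.0722 and 0.241). The summed choroid plexus markers ran from 34.6 to 437 in NAB, against 32.4 to 55.7 in HAB and 25.7 to 41.6 in LAB, with Folr1 at background in all 3 lines and Clic6 also in HAB and LAB. The summed thalamic markers were lower in NAB (145 to 154) than in HAB (154 to 191), as were the summed BLA markers (443 to 469 against 509.9 to 513). The part of these sums in the DG values was not tested. The test that the HAB minus NAB difference of Crhbp differs between regions gave F = 4.40 (limma, adjusted p = 0.345), and averaged over the regions HAB minus LAB was -0.21 (adjusted p = 0.218).

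The region before the Crhbp start is shown because the level of this gene could be compared across all regions. It spans chr13:95444782-95445081 on the minus strand of GRCm38.p6 (RefSeq), with 48.0% G and C. Capitals mark CGTCA, the reverse complement of TGACG, which begins 64 bases before the start site, and TATAAA, which begins 30 bases after it. The other motifs were not found in these letters.
Crhbp promoter: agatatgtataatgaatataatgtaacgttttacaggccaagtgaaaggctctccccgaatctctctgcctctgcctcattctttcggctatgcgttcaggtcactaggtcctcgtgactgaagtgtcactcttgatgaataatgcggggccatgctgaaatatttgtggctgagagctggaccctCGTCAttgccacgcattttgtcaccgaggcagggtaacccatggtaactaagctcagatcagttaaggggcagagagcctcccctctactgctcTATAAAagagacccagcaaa

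Crhr1, the receptor through which the hormone acts on the pituitary and on forebrain neurons, separated NAB from the other lines on 1 of its 3 probes. On probe 1, the NAB arrays in Cg read 30.4, 29.0, 24.3, 23.1, 35.2 and 31.9, while the HAB arrays ran from 2.84 to 4.85 and the LAB arrays from 2.67 to 7.63. The lowest NAB array was thus well above every array of the other lines. In BLA the 6 NAB arrays ran from 17.2 to 22.7, against 3.30 to 5.84 in HAB and 3.90 to 5.40 in LAB. In CeA NAB ran from 10.1 to 16.1, against 2.47 to 5.56 and 2.74 to 6.81. Neither BLA nor CeA had an overlap between NAB and the other lines.

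The remaining regions were dimmer on the same probe. In DG the NAB arrays read 11.9, 5.80 and 11.8, against 2.68 to 5.50 in HAB and 3.39 to 4.45 in LAB. In PVN the NAB arrays ran from 5.96 to 8.29, all below background, yet still above the HAB arrays (2.48 to 3.65) and the LAB arrays (2.91 to 5.82). Over all regions, 20 of 26 NAB arrays were above background and 0 of 25 HAB and 0 of 24 LAB arrays were.

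**Figure D5:**
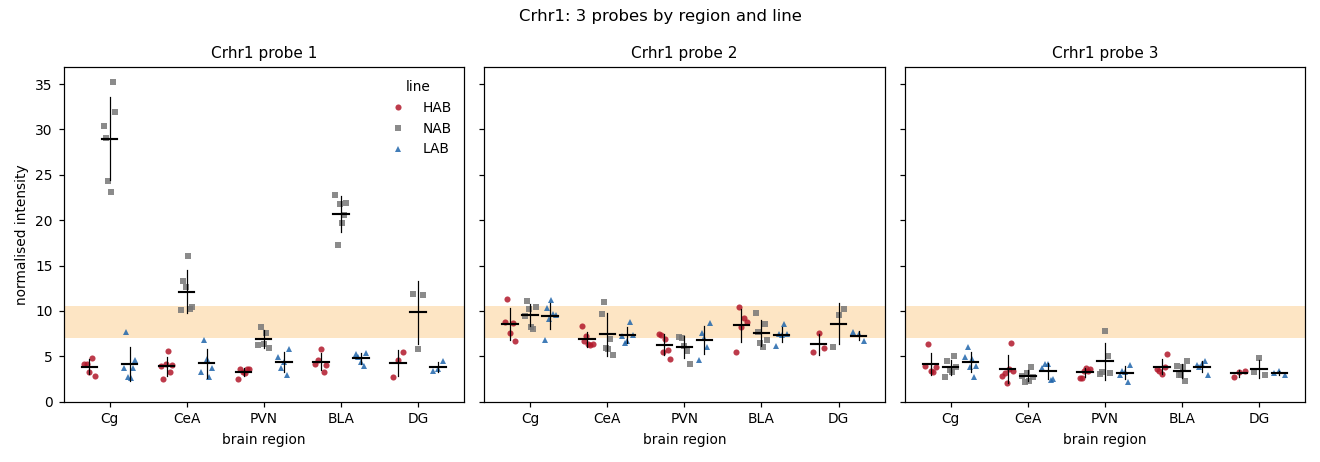
Normalised intensity (linear axis) of the 3 Crhr1 probes by region, with 1 point per array, coloured by line, and the mean with its SD as bars. The shaded band spans the background levels of the arrays (6.99 to 10.6). On probe 1 the NAB arrays of Cg (mean 29.0), BLA (20.6) and CeA (12.1) lie above those of both other lines, and probes 2 and 3 show no such separation.

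Because HAB and LAB were at background throughout, the difference is known only as a lower bound, and its full size was not measured. NAB was at least 3.28-fold higher than HAB and at least 3.34-fold higher than LAB in Cg (limma, adjusted p = 2.95e-08 and 1.68e-08), at least 2.33-fold and 2.31-fold higher in BLA (adjusted p = 3.06e-09 and 7.42e-09) and at least 1.35-fold and 1.37-fold higher in CeA (adjusted p = 6.22e-05 and 2.88e-04). In DG, where the probe was not tested, NAB was at least 1.02-fold and 1.21-fold higher. These p-values come from a probe that was tested only through NAB and describe how far the bright arrays stood from the noise of the others. Whether HAB and LAB differed could not be read, since both were below background in every region.

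The NAB level itself fell from 29.0 ± 4.60 in Cg (SD, n = 6) and 20.6 ± 1.98 in BLA (n = 6) through 12.1 ± 2.34 in CeA (n = 6) to 9.84 ± 3.50 in DG (n = 3) and 6.89 ± 1.01 in PVN (n = 5), while HAB means stayed between 3.29 and 4.39 and LAB means between 3.83 and 4.78. The Cg and BLA arrays of NAB did not overlap with each other or with those of CeA. Since HAB and LAB lay below background in every region, how the size of the line difference varies between regions was not measured. In PVN all 3 lines were below background.

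Probe 2 of Crhr1 did not follow probe 1. Its region means ran from 9.24 ± 1.46 in Cg (n = 17) to 6.35 ± 1.25 in PVN (n = 16), and 23 of 75 arrays were above background, some in each line. It was higher in Cg than in the other regions by 0.37 on the log2 scale (limma, adjusted p = 3.00e-05) and lower in PVN (-0.31, adjusted p = 4.58e-04). Of its 6 line tests within regions, 0 passed, with 0 at an unadjusted p under 0.05 (limma, lowest adjusted p 0.851). Probe 3 ran from 2.10 to 7.76 and was never above background. All 3 probes carry the same transcript accession in the annotation, and where in the transcript each lies was not analysed here.

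The patterns most like that of probe 1 over the 15 group means were those of Cdk14 (Pearson r 0.926), a cyclin-dependent kinase, Krt12 (0.898), a keratin of the corneal epithelium, and Tmem181a (0.880). For probe 2 they were Nat8l (0.922), the enzyme that makes N-acetylaspartate in neurons, 4833427F10Rik (0.897) and Strbp (0.890), an RNA-binding protein. Probes 1 and 2 shared none of these 3 closest patterns. Probe 1 was above background in NAB groups only, and the region means of probe 2 (6.35 to 9.24) lay near the background level. The lists therefore cannot show whether the probes of the gene differ in pattern.

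The region before the Crhr1 start as the RefSeq promoter table gives it, is shown because of the line difference on probe 1. It spans chr11:104132531-104132830 on the plus strand of GRCm38.p6 (RefSeq), with 75.0% G and C. The annotated gene begins further upstream, at position 104130463, and has 8 RefSeq transcripts, so that this is not its only annotated start. Capitals mark GGGCGG, which begins 13 bases before the start site, and no other motif of those searched was found in these letters. The letters are those of the reference strain and not of the HAB, NAB or LAB lines.
Crhr1 promoter: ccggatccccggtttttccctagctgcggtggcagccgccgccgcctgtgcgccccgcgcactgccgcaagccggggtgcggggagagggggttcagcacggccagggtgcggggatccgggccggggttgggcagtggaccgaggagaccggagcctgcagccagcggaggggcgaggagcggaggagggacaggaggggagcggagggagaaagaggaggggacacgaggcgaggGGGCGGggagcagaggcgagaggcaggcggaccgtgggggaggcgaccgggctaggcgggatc

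Crhr2, the receptor shared by the urocortins, stayed near background in all 5 regions. Probe 1 had region means from 7.79 to 9.19, with 10 of 17 CeA arrays above background, the highest share of any region. CeA was higher than the other regions by 0.20 on the log2 scale (SE 0.0718, limma, adjusted p = 0.0163), although the arrays of all regions overlapped. That difference no longer passed with array weights (adjusted p = 0.0594) or without HAB mouse 1, LAB mouse 6 or NAB mouse 4 (0.0513 to 0.0520). Of its 12 line tests within regions 0 passed, with 0 at an unadjusted p under 0.05 (limma, lowest adjusted p 0.435). Its closest patterns were weaker than those of the other members, Actb (Pearson r 0.835), Fam172a (0.820) and Stox2 (0.799). Probe 2 ran from 3.25 to 9.79 and was above background on 1 Cg and 3 BLA arrays. In a fit of all probes with no filter, none of the 81 line tests of combinations left untested above, Crhr1 probe 1 aside, passed (limma, lowest adjusted p 0.339, with 5 at an unadjusted p under 0.05). On Crhr1 probe 1, HAB minus NAB in PVN passed in that fit (-1.07, limma, adjusted p = 0.00111), although both lines were below background there.

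The genes around the system were read from lists of 67 genes for peptide processing, receptor coupling, desensitisation, Crh neuron transcription and partners of the pituitary-adrenal axis, of which 50 were tested with 84 probes. Averaged over the regions, HAB and LAB differed on 5 of 84 probes (1 higher and 4 lower in HAB, 5.95% against 7.17% of all probes), HAB and NAB on 3 (2 higher and 1 lower in HAB, 3.57% against 6.24%) and NAB and LAB on 10 (2 higher and 8 lower in NAB, 11.9% against 11.9%). These shares were at or below those of all probes. No probe of the lists showed a dependence of the line difference on the region that passed.

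Receptor coupling held the largest single difference. Gnaq encodes the alpha subunit of the G protein that links receptors to phospholipase C, and 1 of its 5 tested probes was higher in HAB than in both other lines in every region. HAB minus LAB on that probe was 2.08 in Cg, 1.96 in CeA, 1.48 in PVN, 2.01 in BLA and 1.75 in DG, with a mean of 1.86 (SE 0.0688, limma, adjusted p = 1.18e-33), and HAB minus NAB averaged 1.83 (1.09e-33). As with Crhr1, the other probes of the gene did not pass. Pde4d, a phosphodiesterase that degrades cyclic AMP, was lower in HAB than in LAB in BLA (-0.54, limma, adjusted p = 0.0114), the comparison in which Crhbp passed, but the call was lost with no filter and in the joint fit (adjusted p up to 0.0676). Adcy8, a calcium-stimulated adenylyl cyclase, was lower in HAB than in LAB over the regions (-0.26, limma, adjusted p = 0.00299).

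Of the peptide processing genes, 2 of 7 tested were lower in HAB than in LAB and 5 of 7 lower in NAB than in LAB, averaged over the regions. By probe, 3 of 10 passed for HAB minus LAB (7.17% of all probes) and 6 of 10 for NAB minus LAB (11.9%), all lower, with list medians of -0.14 and -0.27 against -0.04 and -0.03 over all probes. Calls over all probes leaned the same way, with 994 of 1584 lower for HAB minus LAB and 1988 of 2621 for NAB minus LAB. After quantile normalisation that lean was smaller, with 745 of 1490 and 998 of 2337 calls higher, and the list kept 3 and 5 lower probes. Chga, which encodes the granule protein chromogranin A, was at -0.55 for HAB minus LAB (limma, adjusted p = 0.00960) and -0.61 for NAB minus LAB (0.00232). Scg2, secretogranin II of the same granules, was at -0.36 (0.00263) and -0.54 (2.83e-06). Pcsk1n, an inhibitor of the prohormone convertase, was at -0.47 for NAB minus LAB (0.00123) and Cpe, the carboxypeptidase that trims cut peptides, at -0.25 (0.00537). The direction of these 4 genes held under all 7 other settings of the joint fit in which they were tested. Chga, Scg2 and Pcsk1n had 2 tested probes each, and the values are those of the passing probe with the largest difference. The 3 passing probes for HAB minus LAB were of 2 genes and the 6 for NAB minus LAB of 5 genes, so that the second probe did not always pass. In BLA alone Scg2 was lower in NAB than in LAB (-0.84, limma, adjusted p = 0.0114).

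Of the remaining lists, few probes separated the lines. Grk3, a kinase that desensitises receptors, was higher in NAB than in LAB over the regions (0.24, limma, adjusted p = 0.00721). Sik1, a kinase that represses Crh transcription, was higher in HAB than in NAB (0.51, adjusted p = 0.00646). Adcyap1, the peptide PACAP that excites Crh neurons, was lower in HAB than in LAB in BLA (-0.998, adjusted p = 0.0486), a call that 3 of 8 other settings did not give. Between regions, PVN stood out through Oxt (7.88), Avp (6.94), Pou3f2 (2.44), a transcription factor of neuroendocrine neurons, and Adcyap1 (1.13), all as log2 differences from the other 4 regions and all past the threshold. DG was higher than the other regions in Fkbp5 (1.26), a co-chaperone that dampens the glucocorticoid receptor, and in Hsd11b1 (2.00), which regenerates active glucocorticoid.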

How the data were processed

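Brain tissue from 5 regions of 3 mouse lines was measured on Illumina MouseWG-6 bead arrays. The deposited values are linear intensities that the authors read out in BeadStudio and normalised across arrays by QSpline in R (versions are not given in the sources used here). They are relative to the arrays of the series, and no depth exists, so that the number of arrays limits the precision. A second table with 156 per-sample columns before normalisation was not used, because its column names match no label.

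Intensities were put on the log2 scale and tested with limma 3.58.1 in R 4.3.3 (lmFit, eBayes). Background, filter and threshold were as described above. Fits within a region used its arrays only, and the joint fit held all 15 groups with the mouse number as a random block. The numbers were taken as pairing from the labels: deviations from group means correlated at 0.0463 on average between regions of 1 mouse (114 pairs, 70 positive) and at -0.0082 between different mice (628 pairs, 296 positive), with a consensus correlation of 0.0142. Probes were named from GEO's platform annotation, in which 32794 had 1 gene symbol, 55 several and 13794 none, and Ucn2 had no probe of its own. P-values measure the spread between arrays of a group, which come from different animals by their labels, and not the spread between batches. Those for regions therefore do not separate region from batch. The fits were tested on simulated data.

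All member probes are described. From the lists, at most 4 genes per list and comparison were eligible for naming, those past the threshold with the largest differences. Likeness was the Pearson correlation of 15 group means of log2 intensity, for members above background on at least 50% of a group's arrays. The members and the lists were chosen with earlier results of these data known. Alternatives were another pseudocount, normalisation, filter, array weights, block and samples in the fit. Bounds used the higher of a probe's own intensity and the background of each array. Promoters came from RefSeq's GRCm38.p6. Tables used Python 3.11.15, pandas 2.3.3 and numpy 2.4.6.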

Additional observations from a re-analysis of the deposited data

Results flagged for a closer look

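Of 108 groups of a probe, region and line with at least 4 arrays, 4 held an array that lay apart from the rest of its group by Dixon's criterion, a rate below the 1 in 20 that chance gives. On Crhr1 probe 3 in Cg, HAB mouse 5 read 6.35, against 3.30 to 3.90 on the other arrays, and all were below background. For Ucn, NAB mouse 4 read 9.61 in Cg, against 5.26 to 6.51 and a background of 8.98 on that array, which makes it 1 of the 2 arrays where Ucn was detected. Ucn also had a low array in CeA (HAB mouse 5, 2.69, against 3.68 to 4.13) and in PVN (LAB mouse 6, 2.95, against 3.81 to 4.23), all below background.

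The line difference on Crhr1 probe 1 differed between regions in the fit, with F = 12.8 for HAB minus NAB and F = 15.8 for NAB minus LAB (limma, adjusted p = 2.09e-04 and 1.73e-05). HAB and LAB were below background on this probe in every region, so that these values follow the NAB intensity and do not measure how the size of the difference varies.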

How the results depend on the processing

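The counts of member probes that passed moved as follows: 7 within regions became 6 to 7 without 1 array and 5 to 10 under the other settings, 17 between regions became 15 to 19 and 14 to 23, and 2 each for the averaged lines and the region dependence stayed 2 throughout. All passes of Crhr1 probe 1 between lines held in every setting in which the probe was tested, which leaves out CeA at the 99th percentile (highest adjusted p 0.00748, the region dependence of HAB minus NAB without 1 mouse). The probe entered the tests only because NAB is bright on it, so that this persistence adds no support of its own. With 16 added before the logarithm its averaged HAB minus NAB difference shrank from -1.82 to -0.62. The share of values above background was 26.5% and became 16.4% at the 99th percentile. Without the replicate block, 2 averaged, 17 region and 2 region-dependence calls were unchanged in number, and HAB minus NAB on Crhr1 probe 1 was -1.82, so that the mouse pairing changed no call.

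Some differences near 0, none of them a call as reported, changed sign. HAB minus LAB on Crhr1 probe 1 in Cg became 0.009 with array weights, HAB minus NAB of Crhbp in CeA became -0.054 under quantile normalisation both over all arrays and within the region (from 0.033), and Crhbp in CeA against the other regions became 0.017 under quantile normalisation (from -0.099) but passed at -0.22 with 16 added (adjusted p = 8.67e-04). Leaving out 1 array gave -0.143 to 0.160 and -0.231 to 0.097 for HAB minus LAB on Crhr1 probe 1 in Cg and CeA, -0.109 to 0.124 for HAB minus NAB of Crhbp in CeA, -0.153 to 0.138 for HAB minus LAB of Crh in PVN and -0.184 to 0.406 for HAB minus NAB of Ucn3 in PVN. NAB minus LAB of Crhbp in BLA passed under both quantile normalisations (0.0366 and 0.0363) and with array weights (0.0274). The causes were not tested.

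Over all probes, array weights moved NAB minus LAB in BLA from 624 to 3168 calls and in DG from 117 to 603, HAB minus NAB in BLA from 562 to 1280 and in DG from 123 to 405, and the region dependence of NAB minus LAB from 73 to 505 and of HAB minus LAB from 57 to 155. They moved HAB minus LAB and NAB minus LAB in PVN from 385 to 672 and from 312 to 567. The joint fit moved NAB minus LAB in PVN to 929, in CeA from 472 to 772 and in DG to 251, HAB minus NAB in PVN from 316 to 538 and in DG to 251, and HAB minus LAB in DG from 142 to 317. Without the filter, NAB minus LAB fell to 394 in BLA and 231 in CeA. With 16 added, the region dependence rose to 124, 101 and 138 from 57, 52 and 73. Quantile normalisation moved the share of calls that were higher in NAB than in LAB from 32.2 to 55.6% in CeA, from 39.7 to 54.0% in PVN, from 74.8 to 56.7% in BLA and from 24.2 to 42.7% over the regions, and the share higher in HAB than in NAB from 27.4 to 48.8% in BLA and from 61.9 to 49.4% in CeA. Over the regions it moved the calls higher in HAB than in LAB from 590 of 1584 to 745 of 1490, those of CeA, Cg and DG higher than the other regions from 32.7 to 48.7%, from 34.2 to 48.3% and from 58.0 to 46.9%. The background correction of values before normalisation was not run. Signal over background limits Crh, Ucn, Crhr2 and most of Crhr1 on this platform.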
